A study of Homo sapiens with 4 samples.

Results

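The genes described here are 30 members of the extracellular proteolysis machinery, namely 21 matrix metalloproteinases (MMPs), the tissue inhibitors TIMP2, TIMP3 and TIMP4, and the plasminogen system genes PLAU, PLAUR, PLAT, PLG, SERPINE2 and SERPINB2. They were chosen by family, and a measurement was assigned to a member when the RefSeq accession of its array probe belonged to that gene. Of 16410 genes named in this way on the array, 12142 passed a minimum signal of 100 on at least 1 of the 4 arrays, among them 13 of the 30 members. The question asked of them was how their transcript levels in lapatinib-resistant breast cancer cells differed from those in the parental cells.

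Total RNA was profiled from 4 cultures of 2 HER2-positive human breast cancer cell lines, SkBr3 and BT474, with 1 array per culture. Parental SkBr3 and parental BT474 are labelled as vehicle-treated. SkBr3/Lap#6 and BT474/Lap#3 are lapatinib-resistant derivatives that were selected in rising concentrations of lapatinib, which blocks the kinases EGFR and HER2, up to 1 μM. Each resistant line is 1 clone, so a clone's own traits and resistance cannot be told apart, and all 4 cultures were grown in DMEM/F12 medium. For its protein blots the study kept such clones in 1 μM lapatinib. Its text does not say whether the drug was present when RNA was taken. Drug exposure and resistance can therefore not be told apart either. The clone numbers follow the study's text, whereas the sample labels number the SkBr3 clone 3 and the BT474 clone 6.

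MMPs are zinc-dependent proteases that cleave collagens, gelatins, proteoglycans and many cell surface and secreted proteins. Most are made as inactive precursors that other proteases, including plasmin and furin-type convertases, cut into the active form, and TIMPs bind the active enzymes and block them. In the plasminogen system, the activators uPA (PLAU) and tPA (PLAT) convert plasminogen (PLG) into plasmin, uPA acts at the cell surface on its receptor uPAR (PLAUR), and the serpins SERPINE2 and SERPINB2 inhibit the activators. In breast tumors much of the MMP and uPA expression is known to come from stromal cells and infiltrating leukocytes, and in cultured carcinoma cells these genes are known to respond to growth factor and stress signaling.

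Reference promoter sequences were available for 17 of the 30 members, 5 of them among the 10 members that differed at least 2-fold between a clone and its parent. A trio is shown because its genes stood for the main patterns in the data, namely a rise in both clones (TIMP3), a rise in the SkBr3 clone (PLAUR) and a fall in the BT474 clone (MMP11). Each sequence is the 250 bases upstream of the annotated start in RefSeq, build GRCh38.p14, written 5′ to 3′ on the gene's own strand, with AP-1 motifs (TGANTCA) and GC boxes (GGGCGG), read on both strands, in capitals.
TIMP3, chr22:32801455-32801704, plus strand: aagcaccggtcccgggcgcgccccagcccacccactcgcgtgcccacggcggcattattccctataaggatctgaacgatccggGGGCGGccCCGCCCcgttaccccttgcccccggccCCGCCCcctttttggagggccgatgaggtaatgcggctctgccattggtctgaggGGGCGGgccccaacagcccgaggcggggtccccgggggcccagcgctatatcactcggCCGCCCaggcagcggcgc
PLAUR, chr19:43670170-43670419, minus strand: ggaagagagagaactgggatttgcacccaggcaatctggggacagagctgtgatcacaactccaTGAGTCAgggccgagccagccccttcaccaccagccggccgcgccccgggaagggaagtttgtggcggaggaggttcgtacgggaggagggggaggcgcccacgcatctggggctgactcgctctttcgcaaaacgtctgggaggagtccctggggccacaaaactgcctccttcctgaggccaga
MMP11, chr22:23772599-23772848, plus strand: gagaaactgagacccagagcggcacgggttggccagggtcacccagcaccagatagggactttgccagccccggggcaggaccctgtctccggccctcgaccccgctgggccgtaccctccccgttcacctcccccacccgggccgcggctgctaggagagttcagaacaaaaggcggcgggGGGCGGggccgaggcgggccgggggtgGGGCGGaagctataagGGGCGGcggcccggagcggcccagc
The TIMP3 window held 5 GC boxes, the PLAUR window 1 AP-1 motif that begins 186 bases before the start, and the MMP11 window 3 GC boxes. Among all 27305 promoters of this length the AP-1 motif was present in 6.6%, against 5 of the 17 member promoters (29.4%), those of MMP7, MMP10, MMP20, PLAUR and SERPINB2. GC boxes were present in 42.3% of all promoters and in 7 of the 17, and the PEA3 motif of ETS factors (AGGAAG) in 28.7% and in 4 of the 17. The kappaB motif was found in 9.57% of all promoters and in 0 of the 17. The other 13 members, MMP1, MMP9 and MMP13 among them, had no reference promoter and were not scanned. The windows scanned for PLAU and SERPINE2 lay within the annotated span of the gene. These matches describe letters in a fixed window and were not tied to the expression values.

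The level of each member is given as the processed signal, an array intensity after background subtraction that was not scaled between arrays. A change is the difference in log2 signal after each array's 75th percentile was subtracted, clone minus its own parent, so that a signal may rise while the scaled value falls. The 75th percentiles were 1115 in SkBr3 and 2076 in SkBr3/Lap#6, with 1159 in BT474 and 1682 in BT474/Lap#3. Between 66.6% and 74.0% of the probes of an array were marked by the software as well above background, with a lowest such signal between 13.3 and 16.01. Where only 1 signal of a pair was well above background, the change is treated as a limit, written "at least". The dim side was raised to that lowest signal where it lay under it. A dim signal above it was used as it stood, as for MMP12 and the second probe of MMP28. The SkBr3/Lap#6 array came from a separate slide and the other 3 arrays from a common one, so slide and clone cannot be told apart in the SkBr3 comparison. With 1 array per group there was no replicate error, and no p-value can be given for a single clone. The nearest measure of error came from the 5 members spotted 10 times (MMP1, MMP2, MMP9, PLAU and PLAT), whose spots varied with an SD of 0.04 to 0.20 on the log2 scale where well above background, which covers the spread within an array and not that between cultures.

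Well above background were 13 members in SkBr3 and 15 in its clone, and 12 in BT474 and 15 in its clone. Not well above background on any array were 11 members, namely MMP2, MMP7, MMP8, MMP10, MMP14, MMP16, MMP20, MMP26, MMP27, TIMP4 and SERPINB2, with signals from 2.79 to 16.2. They include gelatinase A (MMP2) and its membrane-anchored activator MMP14. A further 5 members, MMP1, MMP12, MMP13, MMP24 and PLG, stayed under the minimum of 100 but were well above background on at least 1 array. The only spot of MMP3, stromelysin 1, was marked as an outlier on SkBr3/Lap#6, where its signal of 127 stood against 4.76, 3.44 and 3.27 in SkBr3, BT474 and BT474/Lap#3, and it was left out.

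**Figure D1:**
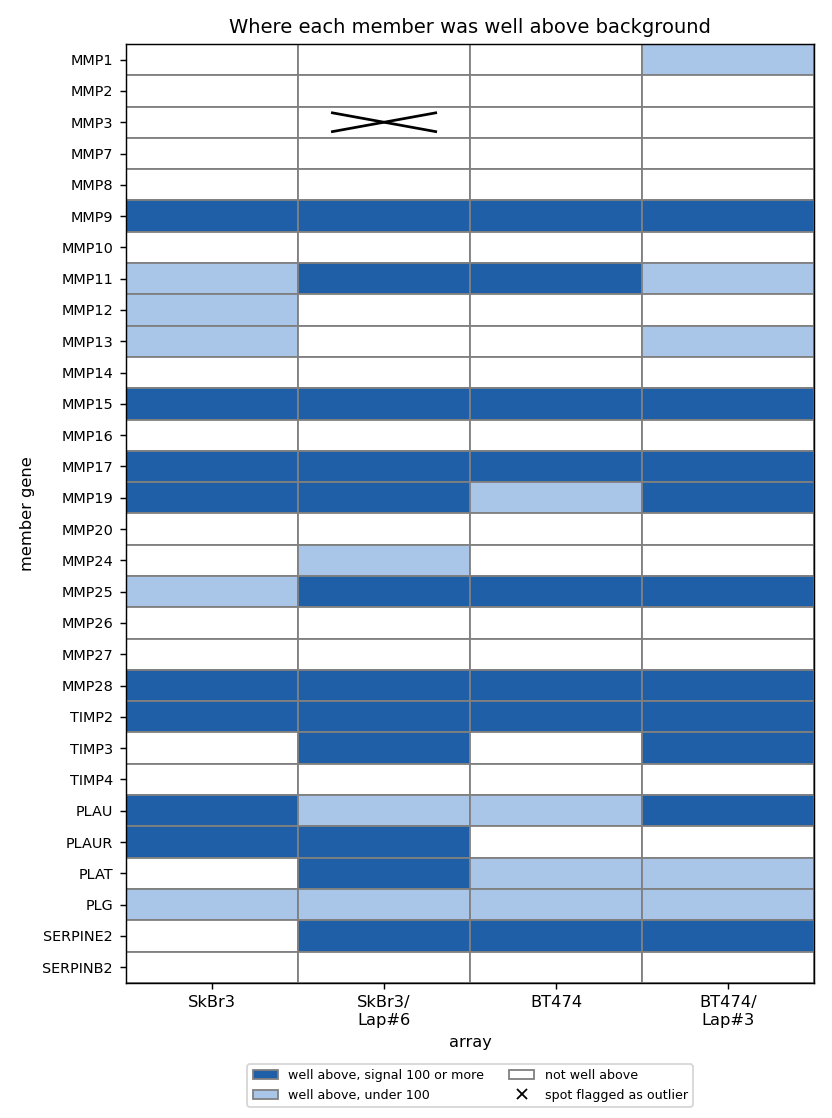
Detection of the 30 members (vertical axis) on the 4 arrays (horizontal axis). Dark cells are signals of 100 or more that were well above background, light cells signals well above background but under 100, white cells signals not well above background, and the cross marks the MMP3 spot that was an outlier. A dark cell on at least 1 array is seen for 13 members, and 11 members are white on every array.

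The collagenases, stromelysins and matrilysin of the MMP cluster on chromosome 11 stayed under the signal minimum in all 4 cultures, apart from the MMP3 spot that was left out. MMP7, MMP20, MMP27, MMP8, MMP10, MMP1, MMP3, MMP12 and MMP13 lie next to each other in this order with 0 other protein-coding genes between them, and 0 of these 9 passed the signal minimum. MMP1, interstitial collagenase, had signals of 15.4 in SkBr3 and 10.3 in SkBr3/Lap#6, with 9.66 in BT474 and 59.9 in BT474/Lap#3, and was well above background only in BT474/Lap#3. All 10 of its spots there lay between 52.0 and 68.2, and the change in the BT474 clone was at least 2.58-fold higher. MMP13, collagenase 3, had signals of 56.2, 2.91, 10.3 and 41.1 in the same order and was well above background in SkBr3 and BT474/Lap#3. It was at least 7.86-fold lower in the SkBr3 clone and at least 1.77-fold higher in the BT474 clone. The brighter probe of MMP12, the macrophage elastase, gave 49.98, 17.4, 5.50 and 4.30, with only parental SkBr3 well above background and a difference of at least 5.35-fold lower in the SkBr3 clone. Its other probe was not well above background on any array. MMP24, a membrane-type enzyme, was marked well above background only in SkBr3/Lap#6, with a signal of 15.1.

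MMP9, gelatinase B, which degrades gelatin and basement membrane collagen, was high in the SkBr3 pair and low in the BT474 pair. Its signals were 1714 in SkBr3 and 3778 in SkBr3/Lap#6, with 126 in BT474 and 159 in BT474/Lap#3. After scaling, the parental lines differed by 3.82 on the log2 scale (14.2-fold), while the changes in the clones were 0.24 and -0.20. Its 10 spots per array did not overlap between the cell lines, which covers the spread within an array and not that between cultures.

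The membrane-anchored enzymes MMP15, MMP17 and MMP25 were well above background on every array. MMP15, which has a transmembrane domain, had signals of 2723 and 6197 in SkBr3 and its clone and of 1778 and 2131 in BT474 and its clone, with changes of 0.29 and -0.28. A second MMP15 probe gave changes of 0.46 and -0.33, the same signs. MMP17, held at the membrane by a lipid anchor, had signals of 545, 709, 3358 and 3092 in this order and was 5.93-fold lower in parental SkBr3 than in parental BT474. Its changes were -0.52 in the SkBr3 clone and -0.66 in the BT474 clone, both under 2-fold. MMP25, another lipid-anchored enzyme known from leukocytes, had signals of 98.8, 196, 185 and 101. It was 2.66-fold lower in BT474/Lap#3 than in BT474 (log2 change -1.41), and its change in the SkBr3 clone was 0.09.

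Secreted MMP11, MMP19 and MMP28 each differed at least 2-fold in 1 clone. MMP11, stromelysin 3, which is cut into its active form by furin inside the cell, had signals of 94.5 in SkBr3 and 184 in SkBr3/Lap#6, with 194 in BT474 and 74.4 in BT474/Lap#3. It was lowest in BT474/Lap#3, where it was 3.78-fold lower than in the parent (log2 change -1.92), against a change of 0.07 in the SkBr3 clone. MMP28, epilysin, which is known from skin and wound healing, had signals of 168, 315, 164 and 786. The 2 parents and SkBr3/Lap#6 were close after scaling, and BT474/Lap#3 was 3.30-fold higher than its parent (log2 change 1.72). A second MMP28 probe, matched to another RefSeq transcript, gave 17.0, 37.8, 21.0 and 431, and a difference of at least 14.2-fold in the BT474 clone. The changes of MMP11, MMP25 and MMP28 in the SkBr3 clone were all within 0.1 of 0 and fell below 0 with 16 added before log2, to -0.03, -0.0032 and -0.04.

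MMP19, which cleaves basement membrane proteins, was higher in SkBr3/Lap#6, and its probes disagreed on the size. The probe with the highest mean signal gave 144 in SkBr3 and 699 in SkBr3/Lap#6, with 94.9 in BT474 and 127 in BT474/Lap#3, a change of 1.39 (2.61-fold) in the SkBr3 clone and -0.12 in the BT474 clone. A second probe of the same RefSeq transcript gave 3.61, 929, 3.73 and 3.32. By this probe MMP19 was well above background only in SkBr3/Lap#6, at least 31.2-fold higher than in SkBr3. The third gave 55.5, 161, 63.7 and 72.8, with a change of 0.64 in the SkBr3 clone that did not reach 2-fold. All 3 were highest in SkBr3/Lap#6.

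**Figure D2:**
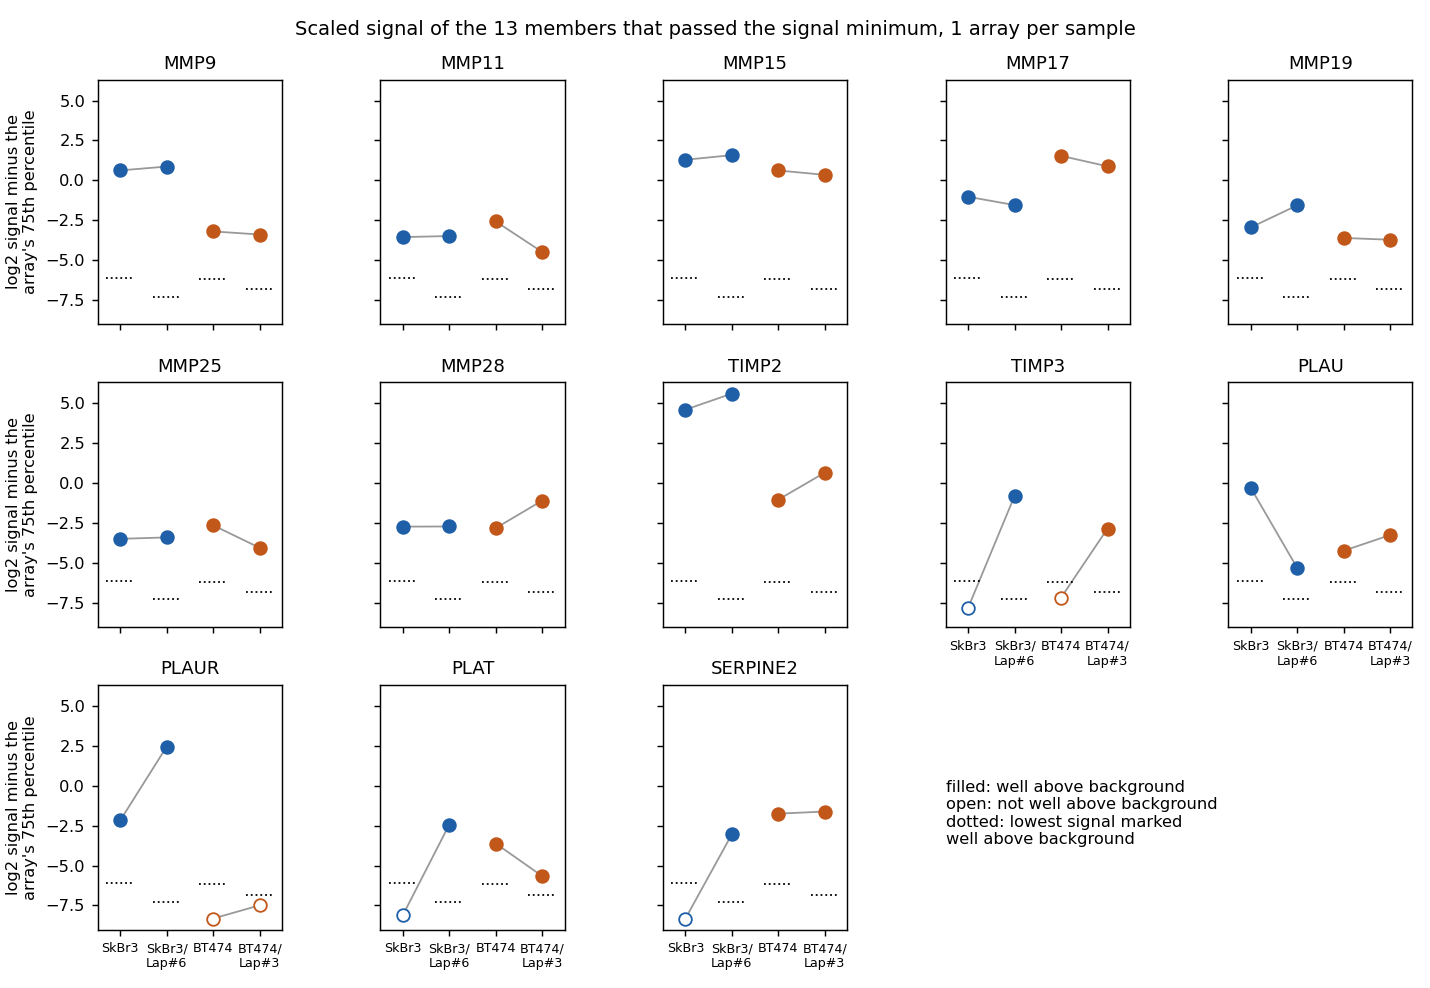
Scaled signal (vertical axis, log2 signal minus the array's 75th percentile) of the 13 members that passed the signal minimum on the 4 arrays (horizontal axis), with SkBr3 samples in blue, BT474 samples in orange and a line from each parent to its clone. Filled points were well above background, open points were not, and dotted lines mark the lowest signal well above background on that array. The TIMP3 points rise from an open parent to a filled clone in both cell lines, and PLAU falls steeply only in the SkBr3 pair.

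The inhibitors TIMP2 and TIMP3 were higher in both resistant clones. TIMP3, which is bound to the matrix and inhibits MMPs as well as several ADAM proteases, had signals of 4.89 in SkBr3 and 1183 in SkBr3/Lap#6, with 7.94 in BT474 and 233 in BT474/Lap#3. Both parents were not well above background and both clones were. The difference was at least 39.7-fold in the SkBr3 clone and at least 10.04-fold in the BT474 clone, and between the clones TIMP3 was 4.12-fold higher in SkBr3/Lap#6. TIMP2, which inhibits MMP2 and also takes part in its activation by MMP14, had signals of 27075, 101340, 566 and 2660 in the same order. It separated the cell lines, with a level 49.8-fold higher in parental SkBr3 than in parental BT474. In BT474/Lap#3 it was 3.24-fold higher than in the parent (log2 change 1.70). In SkBr3/Lap#6 the change was 1.01 (2.01-fold), at the threshold of 2-fold, and its lowest value under another processing was 0.98. TIMP4 was not well above background on any array.

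The 2 plasminogen activators had changes of opposite sign in the 2 clones, PLAU lower and PLAT higher in the SkBr3 clone. PLAU, which encodes uPA, had signals of 913 in SkBr3 and 52.2 in SkBr3/Lap#6, with 61.2 in BT474 and 176 in BT474/Lap#3. Parental SkBr3 was by far the highest and the other 3 cultures were low. PLAU was 32.6-fold lower in SkBr3/Lap#6 than in SkBr3 (log2 change -5.02), and its 10 spots ran from 869 to 998 in the parent and from 43.4 to 60.1 in the clone. In the BT474 clone its change was 0.98 (1.98-fold), just short of the 2-fold threshold, with 10 spots from 48.8 to 71.9 in the parent and from 166 to 198 in the clone. PLAT, which encodes tPA, had signals of 4.02, 387, 94.5 and 33.2, and parental SkBr3 was the only culture not well above background. It was at least 12.97-fold higher in SkBr3/Lap#6 than in SkBr3 and 4.13-fold lower in BT474/Lap#3 than in BT474 (log2 change -2.05). With 1 array per group, the difference between the clones was not tested.

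PLAUR, the cell surface receptor of uPA, was measured in the SkBr3 pair only. Its signals were 247 in SkBr3 and 11385 in SkBr3/Lap#6, with 3.63 in BT474 and 9.36 in BT474/Lap#3, and neither BT474 culture was well above background. It was 24.7-fold higher in SkBr3/Lap#6 than in SkBr3 (log2 change 4.63), so in the SkBr3 clone the receptor was higher while its ligand PLAU was lower. Parental SkBr3 was at least 16.1-fold above parental BT474, and the SkBr3 clone at least 630-fold above the BT474 clone.

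SERPINE2, protease nexin 1, which inhibits uPA, tPA and thrombin, had signals of 3.48 in SkBr3 and 253 in SkBr3/Lap#6, with 346 in BT474 and 550 in BT474/Lap#3. It was low in parental SkBr3 and clearly measured in the other 3 cultures. The difference in the SkBr3 clone was at least 8.50-fold, whereas in the BT474 clone the change was 0.13, a value that turned sign under another scaling. SERPINB2, a second activator inhibitor, was not well above background on any array. The brightest probe of PLG, which encodes plasminogen, a protein made mainly in liver, gave 69.4, 98.6, 53.2 and 74.4 with changes of -0.39 and -0.05. Of its other probes, 1 was marked well above background only in SkBr3/Lap#6, at 16.6, and 1 on no array, while 1 was left out for an outlier spot in SkBr3/Lap#6.

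**Figure D3:**
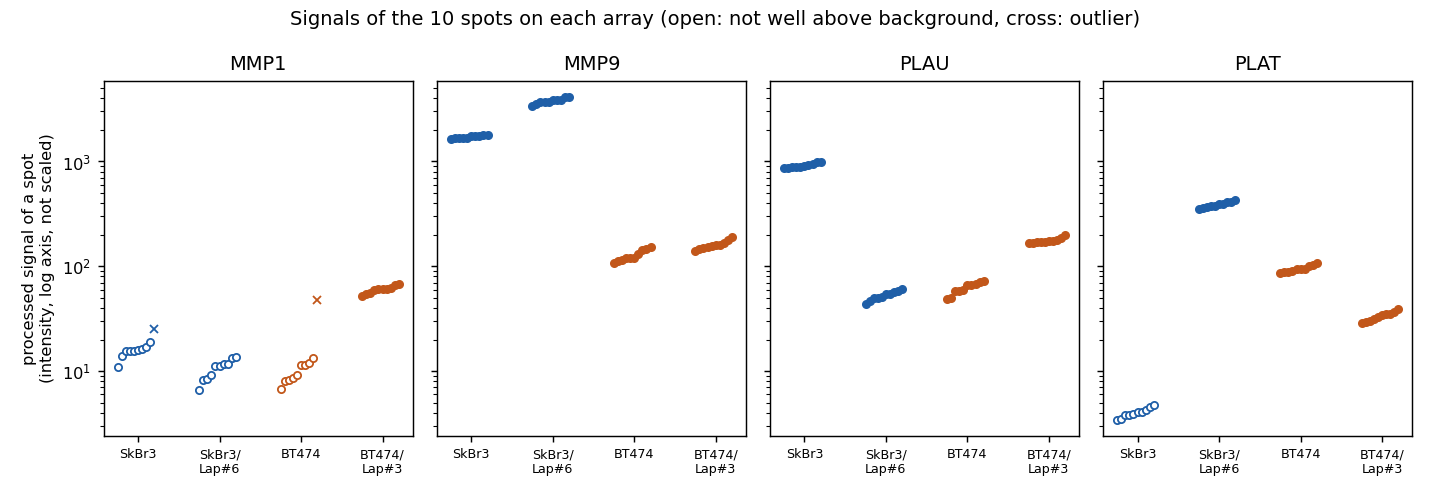
Processed signal of each spot (vertical axis, intensity on a log scale, not scaled between arrays) for MMP1, MMP9, PLAU and PLAT, which were spotted 10 times, on the 4 arrays (horizontal axis). Filled points were well above background, open points were not, and crosses are outliers. The PLAU spots run from 869 to 998 in SkBr3 and from 43.4 to 60.1 in SkBr3/Lap#6, and the PLAT spots lie at 3.45 to 4.76 and 353 to 432 in the same cultures.

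By count, 6 of the 13 members were at least 2-fold higher in SkBr3/Lap#6 (46.2%), where 13.4% of all 12142 genes were higher. They were MMP19, TIMP2, TIMP3, PLAUR, PLAT and SERPINE2. Only PLAU was lower (7.69%), against 13.0% of all genes. In BT474/Lap#3, 3 members were higher (23.1%), MMP28, TIMP2 and TIMP3, against 8.62% of all genes. The same number were lower, MMP11, MMP25 and PLAT, against 5.12% of all genes. Scaled to the array median instead, 6.9% of all genes were higher and 8.22% lower in this clone, with the same numbers of members. TIMP2 and TIMP3 changed in the same direction in both clones, 2 of 13 (15.4%) against 3.66% of all genes. PLAT alone passed 2-fold in opposite directions, 1 of 13 (7.69%) against 2.56%. The members passed the minimum through any culture, including one where they were high, so these counts describe the list and are not a test of it.

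**Figure D4:**
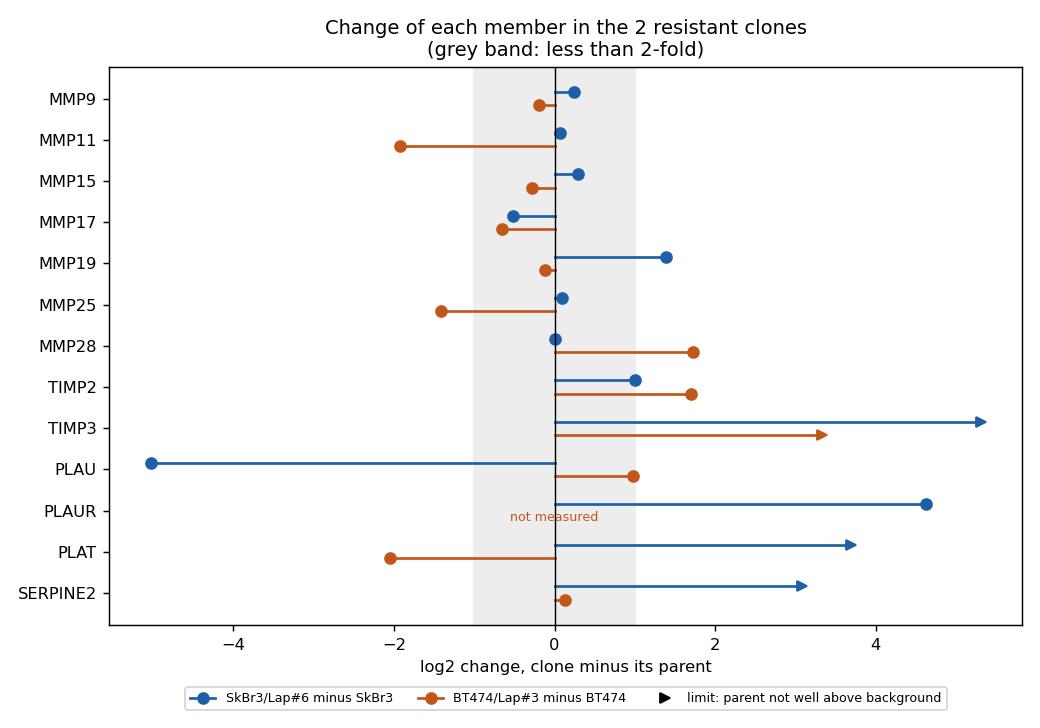
Change of each of the 13 members (vertical axis) as log2 of the clone minus its parent (horizontal axis), with SkBr3/Lap#6 in blue and BT474/Lap#3 in orange. Arrows are limits because the parent was not well above background, the grey band marks less than 2-fold, and PLAUR was not measured in the BT474 pair. Only TIMP2 and TIMP3 leave the band on the same side in both clones, and PLAT leaves it on opposite sides.

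The median change of the members was 0.29 in the SkBr3 clone, with 11 above 0 and 2 below, beside -0.06 over all genes. The changes ran from -5.02 for PLAU to 5.31 for the limit of TIMP3. In the BT474 clone the median was -0.12 over the differences of scaled signals and -0.16 over the 12 members with a change or a limit, with 5 above 0 and 7 below, beside -0.09 over all genes. Here the range was from -2.05 for PLAT to 3.33 for the limit of TIMP3. Between the parental lines, 4 members were at least 2-fold higher in SkBr3 than in BT474 (30.8%), MMP9, TIMP2, PLAU and PLAUR, against 18.7% of all genes. Lower in SkBr3 were 3 members (23.1%), MMP17, PLAT and SERPINE2, against 19.0% of all genes. This share was near that of all genes, and both counts only describe the list.

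The only test that the design allowed took the 2 cell lines as replicates of resistance, in limma with cell line as a block and 1 residual degree of freedom. At a Benjamini-Hochberg adjusted p under 0.05 it called 0 of 25879 probes, 0.0%, and 900 (3.48%) had an unadjusted p under 0.05. Among the 17 member probes that passed the minimum, 2 fell under that unadjusted limit (11.8%), those of TIMP3 and TIMP2. The log2 change in limma was 1.35 for TIMP2, higher in 2 of 2 clones. For TIMP3, also higher in 2 of 2 clones, limma used parental signals that were not well above background, so its fitted change is not given and only the limits above apply. Their adjusted p in limma was 0.9999, so neither passed the correction.

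Genes that act with the members were taken from 5 lists of activation and clearance genes, further inhibitors, ADAM and ADAMTS proteases, cathepsins and inducers. Of 63 listed genes 61 were on the array and 51 passed the signal minimum. In the SkBr3 clone 18 of these were at least 2-fold higher (35.3%) and 4 lower (7.84%), beside 13.4% and 13.0% of all 12142 genes. In the BT474 clone 12 were higher (23.5%) and 7 lower (13.7%), beside 8.62% and 5.12% of all genes, and the counts by list that follow are read against the same shares. These genes also passed the minimum through any culture, and their lists were chosen with earlier results of these data known. Their counts therefore describe the lists and are not a test of them. Of the 13 activation and clearance genes, 7 were higher and 0 lower in the SkBr3 clone, and 2 were higher and 3 lower in the BT474 clone. ANXA2 and S100A10, whose products together form a plasminogen and tPA receptor, were higher in SkBr3/Lap#6 by 1.35 and 1.55 on the log2 scale, with changes of 0.01 and 0.39 in the BT474 clone. PLGRKT, another plasminogen receptor, changed by 1.83 and 0.24 in the same order. LRP1, an endocytic receptor that clears complexes of activators and serpins, was at least 7.08-fold higher in SkBr3/Lap#6 and not well above background in the BT474 pair. Its relative VLDLR was higher by 2.64 in the SkBr3 clone and changed by -2.001 in the BT474 clone.

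Some proprotein convertases, which cut MMP precursors, also differed, while PCSK7 changed by 0.23 in the SkBr3 clone and -0.56 in the BT474 clone. PCSK5 was higher in both clones by 2.70 and 1.91 on the log2 scale, PCSK6 had changes of 5.27 in the SkBr3 clone and -1.26 in the BT474 clone, and FURIN changed by 0.86 and was at least 2.68-fold higher in the BT474 clone. Of the 12 further inhibitors, 3 were higher and 2 lower in the SkBr3 clone, and 2 were higher and 3 lower in the BT474 clone. A2M, a general protease inhibitor of plasma, was higher by at least 32.4-fold in the SkBr3 clone and by at least 3.78-fold in the BT474 clone. TFPI2, a Kunitz inhibitor of plasmin, changed by 2.31 in the SkBr3 clone and -1.89 in the BT474 clone. SERPINI1, a serpin that inhibits tPA, was lower in both clones, with changes of -1.56 and -1.53. SERPINA5, an inhibitor of uPA, was 13.8-fold lower in BT474/Lap#3 and not well above background in the SkBr3 pair, and RECK, a membrane-bound MMP inhibitor, had a change of -0.49 in the SkBr3 clone.

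The 10 ADAM and ADAMTS proteases, relatives of the MMPs of which several are inhibited by TIMP3, included 4 higher in the SkBr3 clone and 2 higher in the BT474 clone, with 0 lower in either. ADAMTS1, a proteoglycan-cleaving enzyme, was higher in the SkBr3 clone by at least 204-fold and in the BT474 clone by 6.63-fold. ADAMTS9 was at least 19.4-fold higher in the SkBr3 clone and at least 5.19-fold higher in the BT474 clone. Of the 8 cathepsins, lysosomal proteases, 1 was higher and 2 lower in the SkBr3 clone and 4 were higher and 0 lower in the BT474 clone. CTSD, cathepsin D, passed 2-fold in opposite directions, with changes of -1.51 in the SkBr3 clone and 1.09 in the BT474 clone. Of the 8 inducers, 3 were higher and 0 lower in the SkBr3 clone and 2 were higher and 1 lower in the BT474 clone. FOS, a subunit of AP-1, was the one higher in both, with changes of 2.05 and 1.46. Other AP-1 subunits differed from it, with changes of 1.37 and 0.07 for JUN, 0.99 and 0.56 for FOSL2 and 0.26 and -0.20 for JUNB. FOSL1 stayed under the signal minimum.

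**Figure D5:**
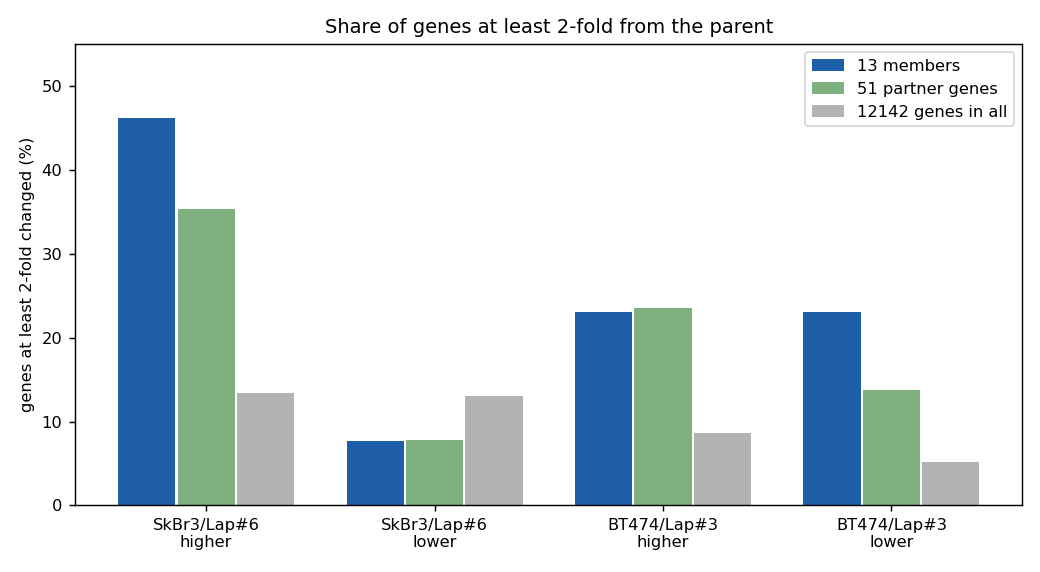
Share of genes (vertical axis, percent) at least 2-fold higher or lower than the parent in SkBr3/Lap#6 and BT474/Lap#3 (horizontal axis), for the 13 members in blue, the 51 genes that act with them in green and all 12142 genes in grey. The share of members higher in SkBr3/Lap#6 was 46.2%, beside 13.4% of all genes. Members and lists were chosen with earlier results of these data known, so the shares describe them and are not a test.

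Markers of the cell lines and of other cell types were read on the same arrays. Of 7 genes of HER2-positive luminal epithelium, 6 were well above background in each culture of the SkBr3 pair and all 7 in the BT474 pair. The exception was CDH1, E-cadherin, with 11.9 in SkBr3 and 4.21 in SkBr3/Lap#6. ERBB2, which encodes HER2, was 237700, 118710, 256350 and 237330 in the order parent then clone, SkBr3 first, and its change in the SkBr3 clone was -1.90. Fibroblast markers were well above background in 1, 4, 1 and 1 of 8 genes in the same order, with summed signals of 1685, 2624, 1304 and 1737. COL3A1, a fibrillar collagen, had 347 in SkBr3/Lap#6 and was not well above background elsewhere, while COL1A2, DCN, LUM and POSTN were not well above background on any array. Of 5 endothelial markers 2, 4, 1 and 2 were well above background, with summed signals of 196, 1424, 914 and 669. PECAM1, an endothelial adhesion molecule, was higher in both clones by at least 5.37-fold and at least 2.38-fold. VWF changed by 0.53 in the SkBr3 clone and was 2.18-fold lower in the BT474 clone. CDH5 was 8.42-fold higher in the SkBr3 clone and not well above background in the BT474 pair, and KDR was at background on every array. Leukocyte and macrophage markers numbered 6, 6, 4 and 5 of 7, with summed signals of 6850, 43485, 238 and 268. Most of that sum was CSF1R, with 5913 in SkBr3 and 42225 in SkBr3/Lap#6, and the pan-leukocyte gene PTPRC was not well above background on any array. These markers moved with TIMP3, PLAUR, PLAT, MMP19 and SERPINE2 in the SkBr3 clone, and their part in those results was not tested. In bulk RNA, fewer cells that express a gene and less RNA per cell cannot be told apart.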

How the data were processed

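The authors hybridized total RNA from each culture to an Agilent whole genome array. They deposited an intensity for every spot, the processed signal after background subtraction, with background and outlier flags, and per the file headers the software was Feature Extraction 10.1.1.1 with a single Cy3 channel on probes annotated to hg18. The methods name another version, Cy3 or Cy5 labeling and LOWESS normalization. A deposited log2 table was centered per probe, with column medians of 0.12 and -0.20 for SkBr3 and its clone and of 0.11 and -0.05 for BT474 and its clone. Its differences, clone minus parent, were within 0.0019 (SkBr3) and 0.0002 (BT474) of the scaled differences over 40939 probes, so scale and direction were settled, and how it was centered across arrays was not given in the sources used here.

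Control spots and outlier-marked spots were left out, which dropped 61 probes, log2 signals were averaged per probe, and each array's 75th percentile was subtracted. Probes were kept with a signal of at least 100 on at least 1 array, and the kept probe of highest mean stood for its gene. A probe was well above background when 50% or more of its spots carried that mark. Probes were named by RefSeq accession (23680 of 41000), with GRCh38.p14 used for names, gene order and promoter windows only. All 30 members are accounted for, and genes that act with them are named where called in both clones or acting directly on a member. The members and lists were chosen with earlier results of these data known.

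A change was called at 2-fold with at least 1 array of the pair well above background. Across cell lines, limma 3.58.1 in R 4.3.3 was used. Other steps used Python 3.11.15, numpy 2.4.6 and pandas 2.3.3, and calls and limma were tested on simulated data. No spot was saturated, and the number of arrays limits the precision. Alternatives were other scalings, normexp (offset 50) on median pixel intensities, the deposited log2 table, 16 added before log2, other filters, outliers kept, 3-fold, flags not used, the probe mean, and limma with no block or with slide as block.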

Additional observations from a re-analysis of the deposited data

Results flagged for a closer look

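PLAT and PLAU had changes of opposite sign in the 2 clones. For PLAT the log2 change was 3.70 in the SkBr3 clone, a limit because parental SkBr3 was not well above background, and -2.05 in the BT474 clone. For PLAU it was -5.02 in the SkBr3 clone and 0.98 in the BT474 clone, the latter under 2-fold. The difference between the clones was not tested, since 4 arrays leave no residual degree of freedom for it, and SkBr3/Lap#6 was on a slide of its own, so slide and clone cannot be told apart.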

How the results depend on the processing

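All 13 member changes of at least 2-fold kept their sign under each scaling, background, pseudocount, table, outlier and probe alternative that gave them a value, and 12 stayed at least 2-fold. The exception was TIMP2 in the SkBr3 clone, 0.98 on the log2 scale with the percentile of only the probes well above background. With that percentile, 1 member changed in the same direction in both clones, against 3.66% of all genes. In opposite directions were 2, against 2.62%, as PLAU in the BT474 clone reached 1.09. Over all genes, median scaling moved the median change in the BT474 clone from -0.09 to -0.29 and turned the split from 8.62% higher and 5.12% lower to 6.9% higher and 8.22% lower. Without a filter, 3 of 29 members were lower in the SkBr3 clone, against 11.2% of all genes. The median change of the 29 members reversed to -0.52, since members at background were included. With outlier spots kept, that median was 0.65 over 14 members. With probes well above background on all 4 arrays, 10 members remained eligible, of which 2 were higher in the SkBr3 clone, 1 changed in the same direction in both clones and 0 in opposite directions, and the SkBr3 median was 0.079. At 3-fold, 1 member changed in the same direction in both clones, against 1.56% of all genes. With normexp, the limit for PLAT in the SkBr3 clone was 2.33 and its change in the BT474 clone -1.02, TIMP3 was 3.89 and 1.82, and PLAU in the SkBr3 clone -3.49. With the mean over probes, MMP19 in the SkBr3 clone was 3.05 and MMP28 in the BT474 clone 2.77. In limma 0 probes passed the adjusted threshold under any alternative, with 1.19% to 5.05% under an unadjusted 0.05. The cell line block in limma pairs each clone with its own parent, and the labels give replicate 1 in every group, so replicate numbers could not serve as a block. Leaving out a replicate was not possible with 1 array per group. Signals near background limit the changes of dim members to bounds.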
